A study of Homo sapiens with 12 samples.

Results

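The genes described here are long intergenic non-coding RNA (lincRNA) genes, named LINC plus digits, that were expressed in 2 breast cancer cell lines in which the lncRNA SOX9-AS1 was targeted by a short hairpin RNA (shRNA). The 168 members were selected on their level: type lncRNA in the deposited count tables, a LINC name, and a mean of 1.0 or more CPM (a gene's counts scaled to a common library total) over all 12 libraries. One such gene was left out by the rule. They are 168 of 2076 LINC genes (8.09%), among 16880 lncRNA genes and 60675 genes in all, and 1077 of the LINC genes had no count in any library. The rule asks for lanes L001 to L003 summed. The column names tie no column to a single sample within its group, in lane L001 or in the others. Lane L001 alone was used for the choice and for every value. Lanes were not summed by the library number in the column names, and membership under summed lanes could differ. Just inside the threshold were LINC01738 at 1.01 CPM, LINC00853 at 1.00 CPM and LINC02021 at 1.00 CPM, and just outside it LINC02019 at 0.966 CPM, LINC02043 at 0.966 CPM and LINC02249 at 0.959 CPM. The levels chose the members, so a level itself is a description.

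The 4 groups had 3 libraries each. They were HCC1187 with sh-SOX9-AS1 (S10, S11 and S12) and its control with sh-LacZ (S7, S8 and S9), and MDA-MB-468 with sh-SOX9-AS1 (S4, S5 and S6) and MDA-MB-468 with sh-LacZ (S1, S2 and S3). The S numbers are those in the column names. Both lines derive from human breast tumours, the labels call all cells basal-like, and RNA was taken after 48 h of transfection; sh-LacZ aims at a bacterial gene that these cells lack. The labels give neither the hairpin sequences nor their number. They name no separate cultures, so p-values measure only the spread between these libraries.

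A lincRNA is transcribed by RNA polymerase II like an mRNA, usually capped, spliced and polyadenylated, but has no long open reading frame. Some act on the gene next to them, some bind proteins or microRNAs, a few turned out to encode small peptides, and for most no function is known. They are known for low levels and for being restricted to few cell types.

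The starts of 6 members on which the results turn are shown first, each from 250 bases before to 50 bases after the start of the gene in RefSeq (GRCh38.p14), written 5′ to 3′ on the strand of the gene. LINC01578, known today as CHASERR, and LINC00641 were the members that fell in HCC1187. LINC01397 had the largest rise there, LINC01547 moved in opposite directions in the 2 lines, LINC01833 was higher in both, and LINC00665 is among the most abundant members. Capitals mark every match, on either strand, to 1 of 9 motifs.
LINC01578: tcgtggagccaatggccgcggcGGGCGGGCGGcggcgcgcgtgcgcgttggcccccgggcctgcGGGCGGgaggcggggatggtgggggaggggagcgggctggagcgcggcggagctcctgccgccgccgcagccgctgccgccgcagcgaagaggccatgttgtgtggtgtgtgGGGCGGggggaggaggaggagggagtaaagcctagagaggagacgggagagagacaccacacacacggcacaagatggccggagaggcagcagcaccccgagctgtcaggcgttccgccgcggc
LINC00641: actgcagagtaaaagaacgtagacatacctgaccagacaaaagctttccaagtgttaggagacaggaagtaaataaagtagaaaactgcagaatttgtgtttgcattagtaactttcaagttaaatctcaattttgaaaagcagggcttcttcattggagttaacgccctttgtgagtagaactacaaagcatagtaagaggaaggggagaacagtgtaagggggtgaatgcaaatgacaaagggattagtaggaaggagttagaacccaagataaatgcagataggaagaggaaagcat
LINC01397: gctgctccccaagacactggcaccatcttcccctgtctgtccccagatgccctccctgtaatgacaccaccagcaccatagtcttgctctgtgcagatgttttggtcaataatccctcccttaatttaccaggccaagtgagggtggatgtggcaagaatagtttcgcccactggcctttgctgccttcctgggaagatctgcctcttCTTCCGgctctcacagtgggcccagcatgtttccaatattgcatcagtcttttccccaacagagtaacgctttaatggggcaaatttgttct
LINC01547: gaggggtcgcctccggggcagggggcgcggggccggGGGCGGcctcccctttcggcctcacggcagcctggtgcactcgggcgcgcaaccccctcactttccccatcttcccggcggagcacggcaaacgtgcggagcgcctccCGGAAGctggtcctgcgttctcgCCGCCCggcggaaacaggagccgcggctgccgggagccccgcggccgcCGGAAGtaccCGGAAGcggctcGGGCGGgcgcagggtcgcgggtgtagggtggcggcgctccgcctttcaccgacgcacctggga
LINC01833: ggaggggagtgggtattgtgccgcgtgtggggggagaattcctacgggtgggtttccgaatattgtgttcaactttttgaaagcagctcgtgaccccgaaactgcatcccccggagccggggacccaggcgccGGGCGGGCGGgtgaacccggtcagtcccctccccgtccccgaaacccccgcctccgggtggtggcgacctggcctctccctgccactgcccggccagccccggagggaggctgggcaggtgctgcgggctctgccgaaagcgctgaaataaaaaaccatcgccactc
LINC00665: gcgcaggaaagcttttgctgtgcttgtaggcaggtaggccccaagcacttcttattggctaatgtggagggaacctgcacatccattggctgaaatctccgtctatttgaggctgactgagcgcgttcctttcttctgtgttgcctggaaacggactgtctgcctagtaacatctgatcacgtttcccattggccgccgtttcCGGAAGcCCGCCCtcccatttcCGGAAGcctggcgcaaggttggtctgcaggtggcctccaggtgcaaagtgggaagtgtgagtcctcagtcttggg
These windows are chr15:92882593-92882892 on the plus strand, chr14:21206851-21207150 on the minus strand, chr1:110082438-110082737 on the plus strand, and chr21:44939864-44940163, chr2:44939150-44939449 and chr19:36331669-36331968 on the minus strand. The windows of LINC01578, LINC01547, LINC01833 and LINC00665 hold GC boxes (GGGCGG), and those of LINC01397, LINC01547 and LINC00665 hold ETS motifs (CGGAAG). No motif of the 9 was found in the LINC00641 window.

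RefSeq promoters were at hand for 118 of the 168 members, found by symbol. A GC box was in 45.8% of them, against 44.6% of all 27305 promoters of the table, and an ETS motif in 22.9%, against 19.9%. A SOX motif (ACAATG) was in 8 of the 118 member promoters, against 2996 of all 27305. A TATA box (TATAAA) was in 13 of the 118, against 3264 of all 27305, an AP-1 motif (TGANTCA) in 13 of the 118, against 2120, and an E-box (CACGTG) in 12 of the 118, against 2030. The TEAD motif GGAATG was in 15.3%, against 14.0%, the CRE TGACGTCA in 2.5%, against 2.0%, and the sterol regulatory element TCACCCCAC in 0.0%, against 0.4%. Overlapping matches of a motif were counted separately. A match describes letters only.

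All 168 members lie on 23 chromosomes in GENCODE release 29 (GRCh38), 31 of them on chromosome 1. That release types 137 of them as lincRNA, 17 as processed transcripts, 11 as antisense and 2 as bidirectional promoter lncRNA, and it holds 1, LINC02693, as a coding gene under the name C17orf51. Spans ran from 1.09 kb to 382 kb with a median of 15.03 kb, and 151 members had at least 2 exons. The span of 21 members overlapped a protein-coding gene, and 72 were overlapped by some gene on the opposite strand. Whether reads were counted by strand is stated nowhere in the sources, so reads of such pairs cannot be told apart. Another 46 members had no protein-coding gene within 50 kb, and 13 started within 1000 bases of a coding gene running the other way. No member lay within 2 Mb of SOX9.

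The members were low. Their median mean level was 2.94 CPM, against 33.7 CPM for the 13403 protein-coding genes of 1.0 CPM or more, and 59 members were under 2 CPM. Together they held 0.108% to 0.120% of the counts in HCC1187 sh-SOX9-AS1 libraries and 0.0965% to 0.110% in HCC1187 controls. In MDA-MB-468 they held 0.118% to 0.125% in sh-SOX9-AS1 libraries and 0.118% to 0.123% in controls. Per kb of the deposited gene length, LINC00641 (11.4 CPM per kb), LINC00294 (9.76) and LINC02381 (9.16) had the highest levels in HCC1187 controls. In MDA-MB-468 controls LINC01740 (15.3 CPM per kb), LINC00665 (13.3) and LINC01895 (11.2) did. The span of LINC00294 lies inside TCP11L1 on the same strand, and that of LINC02381 overlaps SMUG1 on the other strand. Whether reads of these coding genes add to the levels was not tested.

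Lane L001 gave 6026376 to 10160040 counts per library. Over 15491 genes S4 correlated with the MDA-MB-468 controls at r = 0.990 to 0.995 and with S5 and S6, the other libraries of its group, at 0.976 and 0.972, and a deposited phenotype table leaves S4 out; differences of the members in MDA-MB-468 are therefore given with and without it. In HCC1187, SOX9-AS1 was at 1.33, 0.771 and 0.886 CPM with sh-SOX9-AS1 and at 2.54, 1.54 and 1.85 CPM in controls, and fell 2.11-fold (log2 fold change −1.08 ± 0.36 SE, adjusted p = 0.0349). In MDA-MB-468 it was at 5.04, 4.54 and 4.96 CPM with sh-SOX9-AS1 and at 5.52, 6.70 and 5.95 CPM in controls, and its difference did not pass with S4 (−0.30 ± 0.20, adjusted p = 0.417) or without it (−0.32 ± 0.23, adjusted p = 0.274). Of the basal keratins listed, KRT5, KRT14, KRT6A and KRT6B averaged at most 0.0706 CPM in any group labelled HCC1187. KRT17 averaged 8.05 CPM there with sh-SOX9-AS1 and 9.31 CPM in controls, against 259 and 567 CPM in MDA-MB-468. The 10 basal markers summed to 232 to 252 CPM in HCC1187 with sh-SOX9-AS1 and to 276 to 299 CPM in controls. FOXC1 and EGFR made up most of both sums. In MDA-MB-468 the same sum was 5914 to 8196 CPM with sh-SOX9-AS1 and 8008 to 8121 CPM in controls. Of 5 genes listed as markers of the embryonic kidney line HEK293 (LIN28B, NEFM, NEFL, PAX2 and TBX18), all 5 were detected in the libraries labelled HCC1187, with sums of 306 to 357 CPM in sh-SOX9-AS1 libraries and 536 to 563 CPM in controls, against at most 1.51 CPM in any MDA-MB-468 library. Below, HCC1187 stands for the libraries so labelled, and the part of that marker difference in the results was not tested.

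In HCC1187 more of the LINC genes rose with sh-SOX9-AS1 than fell. These are bulk libraries, so fewer cells with an RNA and less of it per cell cannot be told apart. Of the 120 members that passed the filter on low counts, 26 rose at an adjusted p under 0.05 (edgeR's quasi-likelihood test, Benjamini-Hochberg over 14970 genes), beside 9.78% of all genes tested, and 2 fell, beside 13.1%. Among 1368 other lncRNA genes tested, 188 rose and 56 fell, and among 12889 protein-coding genes 1198 rose and 1874 fell. Of the 2425 protein-coding genes tested with a mean of 1 to 10 CPM, nearer the level of the members, 8.08% rose and 6.02% fell. The median log2 fold change was 0.24 over the members tested, 0.22 over the other lncRNA genes and 0.01 over all genes tested. The other 48 members were too low in these 6 libraries to be tested. The 26 include members that passed the filter only through the sh-SOX9-AS1 libraries, and how many was not counted. The count of 26 is therefore a description.

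The falls were in abundant members. LINC01578 was at 23.9, 24.7 and 28.3 CPM in HCC1187 with sh-SOX9-AS1, against 40.7, 39.4 and 46.0 CPM in controls. The groups did not overlap, and the log2 fold change was −0.76 ± 0.11 (adjusted p = 4.86e-05). LINC00641 was at 51.4, 47.1 and 47.8 CPM with sh-SOX9-AS1, against 70.0, 61.5 and 64.2 CPM in controls, without overlap (−0.48 ± 0.10, adjusted p = 0.000823). Both calls were kept under each of the 12 alternatives run for this comparison.

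LINC01578 lies 0.488 kb upstream of CHD2, a chromatin remodeller gene on the same strand, and is known in mouse and human cells to keep CHD2 low in cis. CHD2 was at 119, 125 and 124 CPM in HCC1187 with sh-SOX9-AS1 and at 133, 143 and 151 CPM in controls. It fell as well (−0.27 ± 0.09, adjusted p = 0.0294). In MDA-MB-468, LINC01578 was at 19.6 CPM in S4, 37.5 CPM in S5 and 36.9 CPM in S6, against 38.2, 32.9 and 25.4 CPM in controls, and its change did not pass with S4 (−0.01 ± 0.26, adjusted p = 0.981) or without it (0.23 ± 0.14, adjusted p = 0.219). CHD2 was there at 60.1 CPM in S4, 98.2 CPM in S5 and 109 CPM in S6, against 46.1, 53.9 and 59.9 CPM in controls. Its rise passed without S4 (0.99 ± 0.11, adjusted p = 6.87e-06) and not with it (0.77 ± 0.22, adjusted p = 0.205). So the pair fell together in HCC1187, while in MDA-MB-468 without S4 only CHD2 passed.

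**Figure D1:**
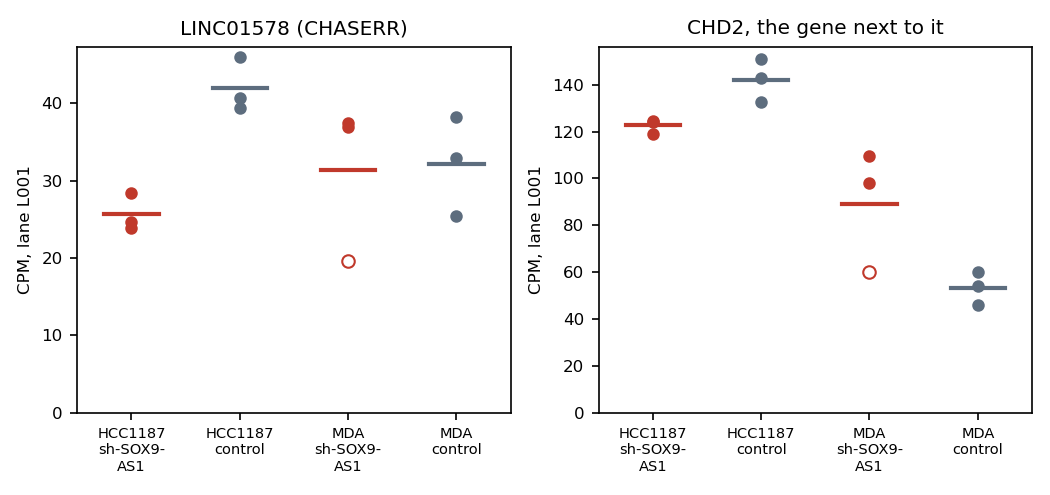
CPM of LINC01578 (left panel) and of CHD2 (right panel) in each library of the 4 groups, on axes starting at 0; horizontal bars are group means and the open circle is S4. Both genes sit lower in HCC1187 with sh-SOX9-AS1 than in its controls, and CHD2 reaches 109 CPM in S6, against 46.1 to 59.9 CPM in the MDA-MB-468 controls.

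The largest rise in HCC1187 was in LINC01397, at 1.49, 1.70 and 2.26 CPM with sh-SOX9-AS1, against 0.530, 0.237 and 0.654 CPM in controls (log2 fold change 1.88 ± 0.43, adjusted p = 0.00263). Its controls all lay under the level set by the filter on low counts, so it was tested only through the sh-SOX9-AS1 libraries. DESeq2 did not call LINC01397. LINC00467, whose RNA is reported to encode a mitochondrial micropeptide in colorectal cancer cells, was at 11.3, 12.5 and 11.6 CPM, against 5.40, 3.67 and 4.36 CPM in controls (1.33 ± 0.18, adjusted p = 1.66e-05). LINC01547 was at 16.6, 9.10 and 11.6 CPM, against 6.25, 6.39 and 3.70 CPM in controls (1.12 ± 0.21, adjusted p = 0.000575). None of these 3 genes had a knockdown library inside the range of the controls.

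LINC00174 was at 13.1, 11.3 and 8.76 CPM with sh-SOX9-AS1, against 6.14, 5.44 and 4.68 CPM in controls (log2 fold change 0.94 ± 0.19, adjusted p = 0.000957). Its span overlaps TPST1, a tyrosylprotein sulfotransferase gene on the other strand, which did not pass in HCC1187 (−0.21 ± 0.13, adjusted p = 0.263). In MDA-MB-468 TPST1 rose without S4 (1.02 ± 0.26, adjusted p = 0.0057) and did not pass with it (0.95 ± 0.27, adjusted p = 0.205). Its effects differed between the lines the other way from those of LINC00174 (HCC1187 minus MDA-MB-468 −1.15 ± 0.29 over 12 libraries, adjusted p = 0.0412). LINC01197, known today as LETR1 and named for lymphatic endothelial cells, was at 3.65, 4.94 and 4.04 CPM, against 1.59, 2.13 and 1.42 CPM in controls (1.24 ± 0.27, adjusted p = 0.00207). LINC00235 was at 5.81, 4.17 and 3.44 CPM, against 2.12, 1.30 and 1.85 CPM in controls (1.23 ± 0.28, adjusted p = 0.00303). The groups of these 3 genes did not overlap either. LINC01197 had no count in any MDA-MB-468 library.

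The other 7 of the 12 largest rises were in genes of low level. Their log2 fold changes were 1.52 for LINC01833, 1.33 for LINC01234, 1.33 for LINC00858, 1.26 for LINC01424, 1.11 for LINC00471, 1.10 for LINC01521 and 1.10 for LINC02732. LINC01234 was at 2.16, 3.39 and 2.85 CPM with sh-SOX9-AS1, against 1.48, 0.946 and 0.763 CPM in controls. LINC00858 was at 4.81, 1.85 and 3.35 CPM, against 1.06, 2.25 and 0.545 CPM in controls, so its groups overlapped. LINC01234 and LINC00858 also entered the test only through the sh-SOX9-AS1 libraries, since too few of their controls reached the level of the filter. Of the 120 members tested, 40 were higher without overlap between the groups, 24 of the 26 rises among them, beside 24.0% of all genes tested. The smallest rise, 0.32 ± 0.11 (adjusted p = 0.0335), was in LINC00205, an abundant member at 70.4, 55.1 and 60.0 CPM, against 53.6, 47.3 and 41.5 CPM in controls.

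How many rises were called depended on the libraries and the tool. The 26 became 14 without S9, 16 without S8, 16 without S12, 16 with DESeq2 and 12 when all 12 libraries were fitted together, and 7 of the 26 were kept under each of the 12 alternatives: LINC00467, LINC00174, LINC01197, LINC00235, LINC01569, LINC01547 and LINC01694. Without S11 the falls numbered 4. With library totals in place of TMM scaling, 29 members rose and 2 fell; over all genes tested, 42.8% of the calls were rises with TMM and 57.4% with library totals.

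**Figure D2:**
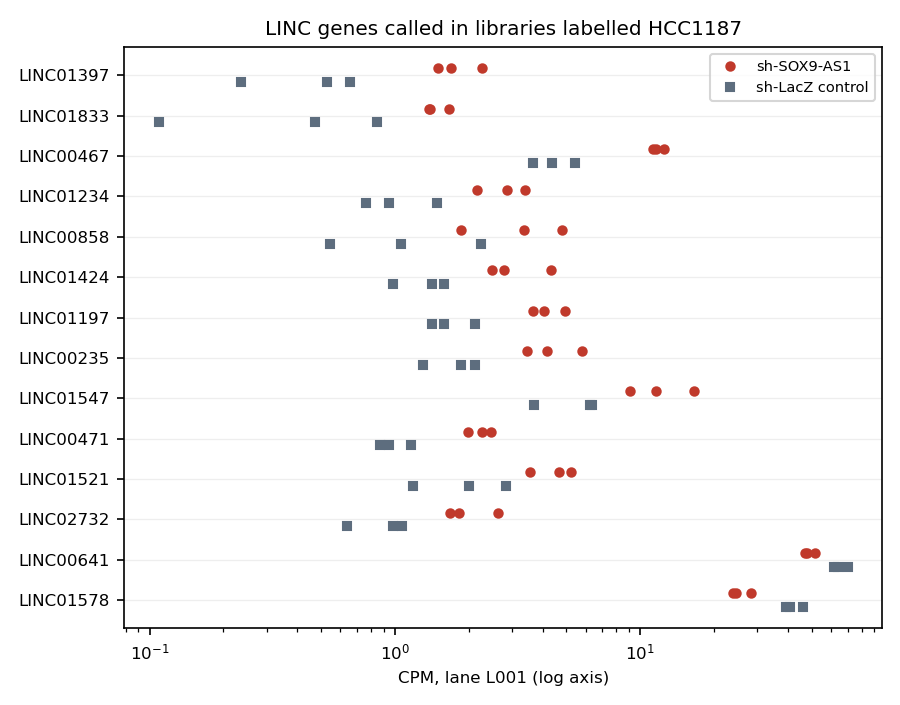
CPM (log axis) in HCC1187 libraries for the 12 members with the largest rises and, in the lowest 2 rows, the falls; red circles are the 3 sh-SOX9-AS1 libraries and grey squares the 3 controls. The red points of LINC01578, at 23.9 to 28.3 CPM, sit left of the grey ones, and those of LINC00467, at 11.3 to 12.5 CPM, right of them.

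In MDA-MB-468 no member passed with all 6 libraries: of 105 members tested, 0 rose, beside 0.0% of the 13638 genes tested, and 0 fell, beside 0.00733% (edgeR). At an unadjusted p under 0.05, 24 of the 105 members were higher, beside 1502 of all 13638 genes, and 7 lower, beside 1053. DESeq2 called 4 higher and 0 lower, edgeR without the filter on low counts 14 higher and 6 lower, and one fit of all 12 libraries 6 higher and 3 lower, S4 included in each. Without S4, with 2 sh-SOX9-AS1 libraries against 3 controls, 33 of 111 members tested rose, beside 20.0% of 13947 genes tested, and 17 fell, beside 20.7%. Calls named below as rises or falls in MDA-MB-468 are from that fit, and the biological coefficient of variation was 0.161 with S4 and 0.0778 without it. In these 50 members S4 was nearer to the control mean than to the mean of S5 and S6 in 43, inside the range of the controls in 21, and inside the range of S5 and S6 in 3. The 50 were called because S5 and S6 differed from the controls. That choice favours a place of S4 near the controls, so these counts are a description. The same counts were not made over all genes.

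LINC02615 rose most. It was at 2.30 CPM in S4, 15.8 CPM in S5 and 16.1 CPM in S6, against 2.14, 1.39 and 1.63 CPM in controls. The log2 fold change was 3.20 ± 0.22 without S4 (adjusted p = 4.11e-08) and 2.73 ± 0.65 with it (adjusted p = 0.205). S5 and S6 stood apart from the other 4 libraries, among them S4.

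LINC01355 was at 2.45 CPM in S4, 12.1 CPM in S5 and 11.8 CPM in S6, against 3.88, 4.81 and 3.27 CPM in controls (without S4 1.61 ± 0.21, adjusted p = 2.25e-05; with it 1.18 ± 0.51, adjusted p = 0.262). LINC01285 was at 4.47, 9.72 and 10.6 CPM in S4 to S6, against 2.76, 3.29 and 3.97 CPM in controls (without S4 1.63 ± 0.22, adjusted p = 4.08e-05; with it 1.34 ± 0.35, adjusted p = 0.205). LINC01208 was at 3.60, 7.70 and 8.95 CPM in S4 to S6, against 3.27, 2.91 and 3.38 CPM in controls (without S4 1.40 ± 0.23, adjusted p = 0.000186; with it 1.11 ± 0.34, adjusted p = 0.206). In LINC01285 and LINC01208 S4 lay above the controls, and in LINC01355 below them.

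LINC01135 starts 0.801 kb from JUN, which encodes a subunit of the AP-1 factor, and runs the other way. The lincRNA was at 1.15 CPM in S4, 6.94 CPM in S5 and 6.47 CPM in S6, against 2.35, 1.90 and 1.52 CPM in controls, and rose without S4 (1.81 ± 0.27, adjusted p = 8.26e-05). JUN was at 81.8 CPM in S4, 36.6 CPM in S5 and 34.6 CPM in S6, against 75.2, 80.7 and 90.0 CPM in controls, and fell without S4 (−1.18 ± 0.11, adjusted p = 1.04e-06). With S4 neither passed (adjusted p = 0.248 for LINC01135 and 0.275 for JUN). The members of this pair moved in opposite directions in S5 and S6.

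The other 7 of the 12 largest rises without S4 were LINC00892 (log2 fold change 2.38), LINC02732 (2.16), LINC01671 (1.88), LINC00106 (1.84), LINC01770 (1.82), LINC00653 (1.57) and LINC01389 (1.44). With S4 the log2 fold changes were 2.02 for LINC00892, 1.76 for LINC02732, 1.50 for LINC01671, 1.19 for LINC00653 and 1.09 for LINC01389, none of which passed, while LINC00106 and LINC01770 were too low to be tested. The filter asks for as many libraries as the smallest group holds, 3 with S4 and 2 without it. A gene high in S5 and S6 alone could therefore enter only without S4. The rises of LINC00106 and LINC01770 are a description. LINC00653, known today as LCDR, was at 0.576 CPM in S4, 2.02 CPM in S5 and 2.06 CPM in S6, against 0.511, 1.39 and 0.233 CPM in controls. Lower in the list was LINC01139, known as LINK-A and described in triple-negative breast cancer for its part in HIF1A signalling. It was at 6.19 CPM in S4, 11.5 CPM in S5 and 13.5 CPM in S6, against 4.60, 5.69 and 6.88 CPM in controls (without S4 1.15 ± 0.20, adjusted p = 0.000403; with it 0.89 ± 0.31, adjusted p = 0.209).

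Among the falls, LINC02577 was at 2.88 CPM in S4, 0.757 CPM in S5 and 0.413 CPM in S6, against 3.47, 1.52 and 3.62 CPM in controls (without S4 −2.25 ± 0.52, adjusted p = 0.00298; with it −1.10 ± 0.62, adjusted p = 0.345). LINC01559 was at 7.63 CPM in S4, 2.40 CPM in S5 and 1.93 CPM in S6, against 7.46, 9.49 and 8.75 CPM in controls (without S4 −1.94 ± 0.26, adjusted p = 3.28e-05; with it −1.09 ± 0.45, adjusted p = 0.246). LINC01963 was at 19.02 CPM in S4, 8.58 CPM in S5 and 8.26 CPM in S6, against 25.2, 21.4 and 18.4 CPM in controls (without S4 −1.34 ± 0.18, adjusted p = 2.91e-05; with it −0.85 ± 0.31, adjusted p = 0.219). S4 lay inside the control range in all 3 of these genes.

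LINC02159 (log2 fold change −1.50 without S4), LINC00323 (−1.19), LINC00997 (−1.06), LINC01819 (−0.94), LINC01224 (−0.80), LINC02604 (−0.78), LINC02541 (−0.78), LINC01128 (−0.77) and LINC01547 (−0.69) fell as well. With S4 the log2 fold changes of these 9 ran from −1.10 for LINC02159 to −0.44 for LINC02541, and none passed. LINC02604 was 1 of 4 called members in which S4 lay at or past S5 or S6: at 2.88 CPM it was lower in S4 than in S5 (4.17 CPM) and S6 (3.99 CPM), against 8.17, 6.83 and 6.30 CPM in controls. LINC00665, known to encode the micropeptide CIP2A-BP studied in triple-negative breast cancer, was at 132 CPM in S4, 84.8 CPM in S5 and 87.1 CPM in S6, against 116, 119 and 132 CPM in controls. It fell without S4 (−0.49 ± 0.09, adjusted p = 0.000709) and did not pass with it (−0.25 ± 0.17, adjusted p = 0.423).

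**Figure D3:**
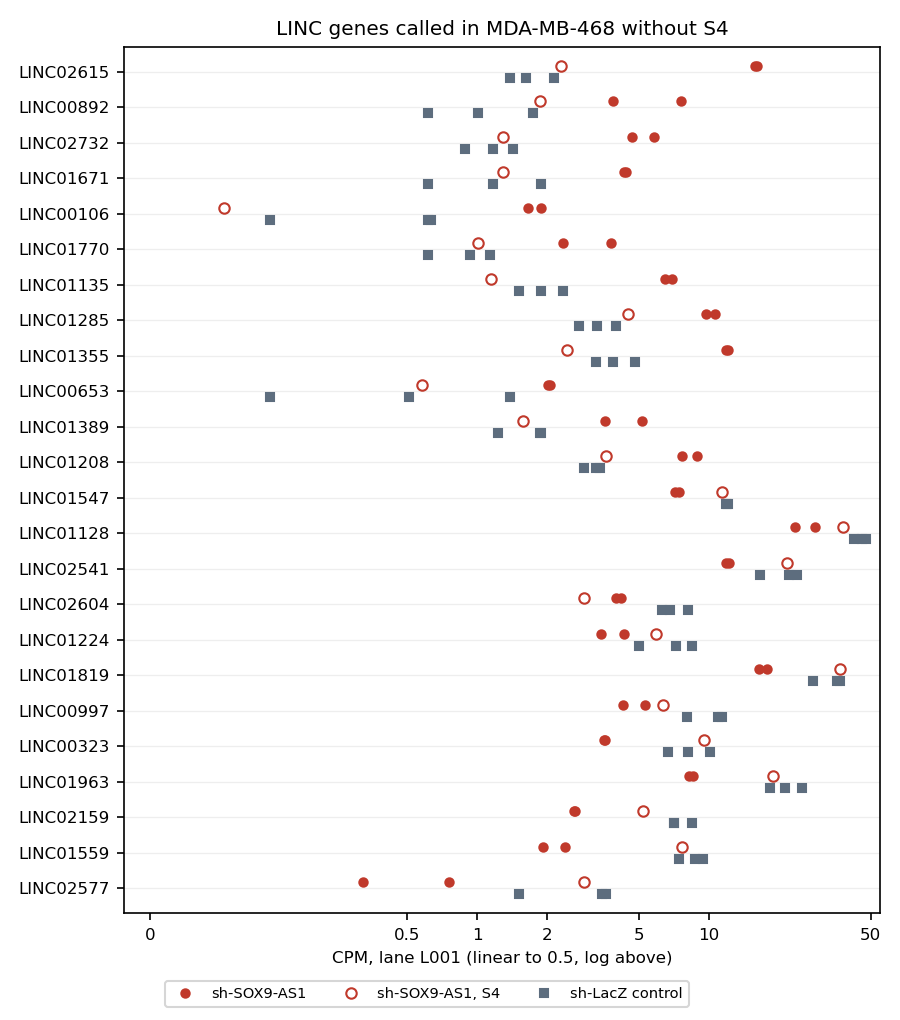
CPM in MDA-MB-468 libraries (axis linear to 0.5 and logarithmic above) for the 12 largest rises (upper rows) and 12 largest falls (lower rows) called without S4; filled red circles are S5 and S6, open red circles S4, and grey squares the 3 controls. For LINC02615 the filled circles, at 15.8 and 16.1 CPM, sit far right of the controls and of S4 at 2.30 CPM.

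Setting the lines side by side, 64 members were tested in HCC1187 and in MDA-MB-468 without S4. Of these, 9 passed in HCC1187 and not in MDA-MB-468, 22 in MDA-MB-468 and not in HCC1187, and 5 in both. Over all 12421 genes tested in both fits the shares were 14.3%, 30.3% and 9.96%, beside 14.1%, 34.4% and 7.81% of the members, and the difference itself is tested further on. LINC01833, LINC02732, LINC01569 and LINC00910 were higher in both. In HCC1187 the call of LINC02732 was kept in 6 of 12 alternatives and not with DESeq2. That of LINC00910 was kept in 10 of 12 and that of LINC01569 in all 12. LINC01833 lies 2.70 kb from SIX3, a homeobox gene on the other strand. It was at 1.66, 1.39 and 1.38 CPM in HCC1187 with sh-SOX9-AS1, against 0.848, 0.473 and 0.109 CPM in controls (log2 fold change 1.52 ± 0.48, adjusted p = 0.0245, kept in 2 of 6 fits that leave out 1 library). In MDA-MB-468 it was at 5.04, 7.20 and 6.61 CPM in S4 to S6, against 3.17, 2.91 and 4.20 CPM in controls (1.03 ± 0.24 without S4, adjusted p = 0.00322; 0.90 ± 0.25 with it, adjusted p = 0.205). All 3 knockdown libraries of each line lay above all of its controls. LINC01833 entered the HCC1187 test only through the sh-SOX9-AS1 libraries, since its controls there lay under the level set by the filter.

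LINC01547 went opposite ways: it rose in HCC1187, as above, and in MDA-MB-468 it was at 11.4 CPM in S4, 7.45 CPM in S5 and 7.16 CPM in S6, against 11.9, 12.1 and 11.9 CPM in controls. It starts 0.097 kb from FAM207A on the other strand, which did not pass in HCC1187 (0.08 ± 0.15, adjusted p = 0.742) and fell in MDA-MB-468 without S4 (−0.70 ± 0.14, adjusted p = 0.00139).

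**Figure D4:**
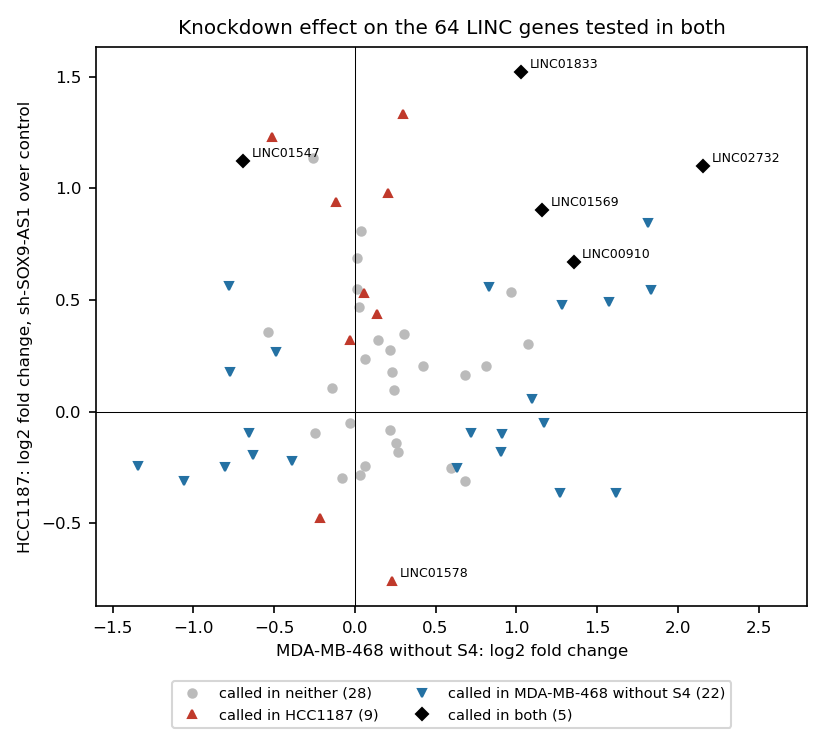
Log2 fold change of sh-SOX9-AS1 over control in HCC1187 (vertical axis) against that in MDA-MB-468 without S4 (horizontal axis) for the 64 members tested in both; symbols mark the fit or fits in which a member was called. The 5 black diamonds are called in both, and LINC01547 is the one left of 0.

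The difference between the knockdown effects (HCC1187 minus MDA-MB-468) was tested as an interaction over all 12 libraries. Of 167 members tested, 5 had a higher effect in HCC1187, beside 1.24% of 16328 genes tested, and 0 a lower one, beside 2.52% (edgeR; 1 lower with DESeq2 and 3 without the filter on low counts). At an unadjusted p under 0.05, 15 members were higher, beside 1562 of all genes tested, and 7 lower, beside 1806. Over all genes tested, 33.0% of the calls were in the higher direction, and 46.9% with library totals. The 5 members with a higher effect were LINC01397 (difference 2.13 ± 0.56, adjusted p = 0.0473), LINC01547 (1.59 ± 0.34, adjusted p = 0.0219), LINC02604 (1.50 ± 0.34, adjusted p = 0.0255), LINC00467 (1.22 ± 0.29, adjusted p = 0.0321) and LINC00174 (1.08 ± 0.25, adjusted p = 0.0272). LINC02604 was at 10.5, 7.10 and 8.86 CPM in HCC1187 with sh-SOX9-AS1, against 7.63, 4.85 and 4.58 CPM in controls (0.56 ± 0.21, adjusted p = 0.051), and had lower knockdown values in MDA-MB-468.

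The number of such members changed with single libraries. It was 0 without S1, S2, S5, S9 or S10, 1 without S8, 2 without S11 or S12, 3 without S3 or S6, and 16 without S4. Without S4, 16 members differed upward, beside 12.4% of 16807 genes tested, and 9 downward, beside 13.2%. The 5 named above were among the 16, with LINC01547 at 1.81 (adjusted p = 5.07e-05). Among the 9 were LINC01355 at −1.98 (adjusted p = 1.5e-06) and LINC01578 at −0.99 (adjusted p = 0.000324).

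The control libraries of the lines differed in most members. Of 149 tested, 69 were higher in HCC1187, beside 43.6% of 15592 genes tested, and 68 were lower, beside 40.4%. With library totals in place of TMM, the median log2 ratio of all genes tested moved to 0.29, against 0.06, and that of the members to 0.28, against 0.05, with 70 higher and 63 lower. Membership asked for 1.0 CPM on average over both lines: 56 members reached that in the controls of both, 57 only in HCC1187, 52 only in MDA-MB-468 and 3 in neither. The levels that chose the members set these counts.

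Some members were read in 1 line only. How often this holds over all genes of 1.0 CPM or more was not counted, so the member counts here are a description. No count was found in the HCC1187 controls for 21 members and in the MDA-MB-468 controls for 13, and over all 6 libraries of a line for 17 and 10. Folds against such a group were set against a floor of 3 counts over its 3 libraries, 0.111 CPM in HCC1187 and 0.114 CPM in MDA-MB-468, which covers counting error only. LINC01133, reported to bind the splicing factor SRSF6 in colorectal cancer cells, had 0 counts in the HCC1187 controls, against 26.9, 30.7 and 39.8 CPM in those of MDA-MB-468, and was at least 293-fold lower in HCC1187. LINC02015 was likewise at least 175-fold lower in HCC1187, with 19.5, 16.9 and 21.6 CPM in the MDA-MB-468 controls, LINC01235 at least 129-fold, LINC01606 at least 125-fold and LINC00607, known from endothelial cells, at least 116-fold. In these 5 genes the HCC1187 knockdown libraries held 0 to 0.166 CPM.

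In the other direction, LINC00491 was at 6.78, 7.33 and 6.21 CPM in HCC1187 controls, with 0 counts in those of MDA-MB-468, and was at least 59.3-fold higher in HCC1187. LINC02253 was at 5.30, 5.09 and 5.99 CPM there (at least 47.8-fold higher), LINC01876 at 4.98, 4.73 and 4.68 CPM (at least 42.0-fold), and LINC01572 at 3.39, 5.20 and 3.92 CPM (at least 36.5-fold). LINC01411 was at 13.7, 12.5 and 10.6 CPM in HCC1187 controls, against 0, 0.126 and 0 CPM in MDA-MB-468 controls. LINC00958, also known as BLACAT2 and described in bladder cancer, was at 10.3, 9.58 and 6.75 CPM, against 0, 0 and 0.117 CPM. None of these 6 changed past the threshold with sh-SOX9-AS1 in HCC1187, their log2 fold changes running from −0.21 to 0.33.

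**Figure D5:**
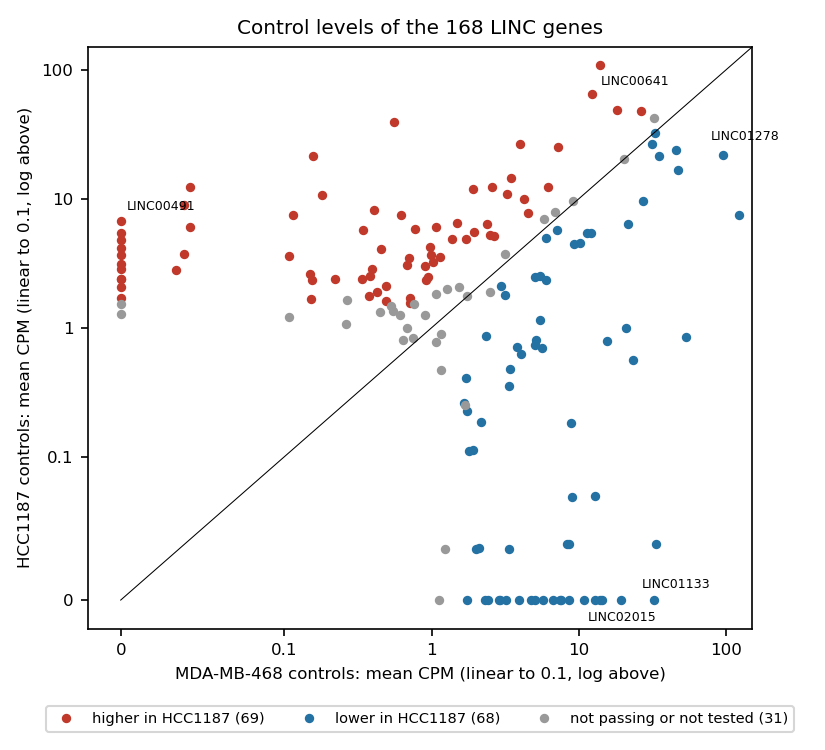
Mean CPM of each of the 168 members in HCC1187 controls (vertical axis) against MDA-MB-468 controls (horizontal axis), both axes linear to 0.1 and logarithmic above, 3 libraries each; colours give the call of the test between the lines and the line marks equal levels. The 21 points on the lower edge and the 13 on the left edge had 0 counts in the controls of 1 line.

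The 10 members highest in mean CPM were read in both lines, and 9 of them differed between the controls. LINC01278 was at 22.2, 18.2 and 25.2 CPM in HCC1187 controls, against 89.6, 94.6 and 101 CPM in MDA-MB-468 controls (log2 ratio −2.35 ± 0.11, adjusted p = 1.32e-14). LINC00665 was at 9.22, 6.50 and 6.86 CPM, against 116, 119 and 132 CPM (−4.25 ± 0.12, adjusted p = 1.9e-18). LINC02693 was at 117, 109 and 102 CPM, against 14.6, 15.1 and 12.4 CPM (2.73 ± 0.10, adjusted p = 3.17e-16). The lines did not overlap in any of the 3.

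LINC00641 was at 70.0, 61.5 and 64.2 CPM in HCC1187 controls, against 13.1, 11.8 and 12.1 CPM in MDA-MB-468 controls, a log2 ratio of 2.17 ± 0.11 (adjusted p = 4.86e-14). For LINC00205 the log2 ratio was 0.60, for LINC00649 1.18, for LINC00342 −1.74, for LINC01128 −1.16 and for LINC00963 −0.46, and all 5 passed. The call of LINC00963 was not kept with library totals in place of TMM. LINC01578 alone of the 10 did not pass (0.15 ± 0.12, adjusted p = 0.267). With sh-SOX9-AS1, LINC01278 did not pass in HCC1187 (0.32 ± 0.13, adjusted p = 0.0749) or in MDA-MB-468 with S4 (0.11 ± 0.10, adjusted p = 0.56) or without it (0.14 ± 0.09, adjusted p = 0.232).

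Members and their nearest protein-coding gene were set side by side without a test. Between the controls of the lines, 104 called members had a tested neighbour, which passed in the same direction in 61, in the opposite direction in 34 and not at all in 9. Leaving out pairs whose spans overlap, it was 54, 30 and 8 of 92. In HCC1187 with sh-SOX9-AS1, 1 of 20 such neighbours passed in the same direction (CHD2) and 2 in the opposite direction, while 17 did not pass. The opposite pairs were LINC00205 with POFUT2, a protein O-fucosyltransferase gene 0.152 kb away (−0.46 ± 0.11, adjusted p = 0.00386), and LINC01033 with ARL15 (−0.72 ± 0.16, adjusted p = 0.00172). The values are those of the neighbours. The rise of LINC00205 itself was kept in 5 of 12 alternatives and that of LINC01033 in 6 of 12. In MDA-MB-468 without S4, 11 of 36 passed in the same direction, 5 in the opposite direction and 20 did not pass. Over all genes tested, 43.6% were higher and 40.4% lower between the controls of the lines. With sh-SOX9-AS1, 9.78% rose and 13.1% fell in HCC1187, and 20.0% rose and 20.7% fell in MDA-MB-468 without S4. Whether a member and its neighbour are linked was not tested.

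Other well-known lncRNA genes, listed by name and none of them a member, fell more often than they rose in HCC1187. Of 29 tested, 1 rose, beside 9.78% of all genes, and 9 fell, beside 13.1%, with a median log2 fold change of −0.22, against 0.24 over the members. TMPO-AS1 rose (0.88 ± 0.16, adjusted p = 0.000379), and H19 (−1.55 ± 0.46, adjusted p = 0.0164), CRNDE (−0.80 ± 0.12, adjusted p = 2.9e-05), FTX and GAS5 were among the falls. H19 was low, with a mean under 1.0 CPM over all 12 libraries. In MDA-MB-468 without S4, 8 of the 29 rose, beside 20.0% of all genes, and 6 fell, beside 20.7%. Among the rises were NEAT1 (1.52 ± 0.09, adjusted p = 7.31e-09) and MALAT1 (0.93 ± 0.13, adjusted p = 6.44e-05), the RNAs of nuclear paraspeckles and speckles. With S4, 0 of 29 passed.

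Of 22 genes whose products act in the decay, tailing and export of RNA, 0 rose and 4 fell in HCC1187: XRN1, DCP2, ZFC3H1 and DIS3, with log2 fold changes of −0.55 to −0.28. Over all genes tested 9.78% rose and 13.1% fell there. XRN1 is the cytoplasmic exonuclease, DCP2 the decapping enzyme, DIS3 a nuclease of the exosome and ZFC3H1 part of a complex that brings nuclear RNA to it. In MDA-MB-468 without S4, 4 of the 22 rose, ZFC3H1 most (1.15 ± 0.09, adjusted p = 2.32e-07), and 9 fell, beside 20.0% and 20.7% of all genes tested; with S4 none passed. Whether these genes have a part in the levels of the LINC genes was not tested.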

How the data were processed

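Gene counts of 12 libraries were analysed as the authors deposited them: whole-number counts per gene, not normalized, with a gene length, which gave the CPM per kb. Tools named per the submitters' processing notes are HISAT2 2.1.0, featureCounts 2.0.0 and Trimmomatic 0.39, with GRCh38; no source used here gives settings, strand handling or annotation release. Per the labels' protocols, the kit was TruSeq Stranded mRNA, read as pairs of 76 bp. The knockdown columns are named BLANCO, a word left unexplained; groups follow the titles and descriptions. Lane L001 was used and 24 of the 36 count columns were not used, so depth was 6026376 to 10160040 counts per library, not that of all lanes.

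The main test was edgeR 4.0.16 in R 4.3.3 (quasi-likelihood F test, filterByExpr with minimum count 10 and total 15, TMM, Benjamini-Hochberg over all genes tested, adjusted p under 0.05); SE is the log2 fold change over the root of F. The code was tested on simulated data. Alternatives were DESeq2 1.42.0, RLE or library-total scaling, no filter, CPM 1.0 or more in 3 libraries, all 12 libraries in one fit, and leaving out each library. CPM used library totals. Coordinates came from GENCODE release 29, promoters from RefSeq. Members and lists were chosen with earlier results of these data known. Named members were those passing (the 12 largest changes per direction where more passed), the 10 highest by mean CPM and those at the threshold; not all are printed. The capitals in promoters are motif matches.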

Additional observations from a re-analysis of the deposited data

Results flagged for a closer look

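The effect of sh-SOX9-AS1 differed between HCC1187 and MDA-MB-468 in 5 members by the interaction test over 12 libraries. The difference (HCC1187 minus MDA-MB-468, log2) was 2.13 for LINC01397, 1.22 for LINC00467, 1.08 for LINC00174, 1.50 for LINC02604 and 1.59 for LINC01547. With S4 left out these were 2.16, 1.03, 1.05, 1.35 and 1.81. For LINC01397, LINC00467, LINC00174 and LINC01547 the HCC1187 libraries with sh-SOX9-AS1 lay above the controls without overlap, while LINC02604 did not pass in HCC1187 (0.56, adjusted p = 0.051). The span of LINC00174 overlaps TPST1 on the other strand, for which the difference was −1.15. No 1 of the 5 calls was kept in every fit that leaves out 1 library. In HCC1187 LINC01397 entered the test only through its sh-SOX9-AS1 libraries.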

How the results depend on the processing

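For HCC1187, 26 members rose; DESeq2 gave 16, all 12 libraries in one fit 12, and leaving out 1 library 14 (without S9) to 23. The falls, 2 in number, ran from 2 to 4 (without S11) when 1 library was left out. In MDA-MB-468, with 0 rises and 0 falls in 6 libraries, DESeq2 gave 4 rises, no filter on low counts 14 rises and 6 falls, all 12 libraries in one fit 6 rises and 3 falls, and leaving out 1 library 0 to 33 rises and 0 to 17 falls, the highest without S4. For the difference between the lines, with 5 members higher and 0 lower, leaving out 1 library gave 0 to 16 higher and 0 to 9 lower; DESeq2 gave 1 lower and no filter 3 lower. Between the controls, 69 members were higher and 68 lower, and each alternative run gave counts within 1.5 times of these. Apart from the library left out or added, which is the alternative's own construction, the cause was not tested. Of the values of single members under alternatives, 691 kept their call or lack of one, 46 passed only under the alternative, 68 no longer passed, and 0 changed direction as a called value. No paired analysis was possible because the count columns carry no replicate number, so the replicate block was not run. The sum of lanes, by the library number in the column names, was not run either. Low counts limit precision where members were under 2 CPM on average, 59 of 168. In HCC1187, 48 members were too low to be tested, 17 of which had 0 counts in all 6 libraries of the line.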
